A study of Caenorhabditis elegans with 5 samples.

Results

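The astacins are zinc metalloproteases that are secreted or bound to the cell surface, and C. elegans carries an unusually large set of their genes. The features of the count files whose symbol is nas followed by a number, or is hch-1, toh-1 or dpy-31, were taken as members, which gave 38 genes of 19176 features. They were followed between 2 ages of wild type N2 animals, in 2 libraries of L4 larvae (the stage before adulthood) and 3 libraries of adults at Day 6. Both ages were grown at 20° on the bacterium E. coli HT115 with L4440, an RNAi vector without an insert, and with 2 mM IPTG in the plates. The adults alone had also received FUdR (25 µg/mL) from L4 onwards, which blocks DNA synthesis and stops reproduction, so age and FUdR cannot be told apart. Each library came from whole animals, so fewer cells of a type and less RNA per cell cannot be told apart either. In the paper's methods animals to be aged were moved to plates with FUdR at L4. It is not stated there whether the L4 libraries came from the same cohorts. The study describes its replicates as independent biological ones and has the RNA of 1 replicate prepared together, so libraries of the same number may share a cohort and a preparation, but the L4 libraries carry different numbers in their titles and in their library names. The names nas-2 and nas-6 of the annotation matched no feature and were not analysed here.

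Astacins are made as inactive precursors with a propeptide that is removed before they cut their substrates. In C. elegans they are best known for work on the cuticle and the eggshell. HCH-1 helps the embryo out of the eggshell, DPY-31 cuts the carboxyl end off collagen precursors, NAS-36 and NAS-37 are needed to shed the old cuticle at each molt, NAS-38 acts in molting and in the sleep that goes with it, and NAS-7 helps to build the grinder of the pharynx. NAS-39 is the member most like BMP-1 and tolloid, the proteases that process collagen and release BMP ligands in other animals. Most other members have no role that is firmly known. By textbook domain layout the family falls into short members (nas-1 to nas-5), members with ShK-type domains (nas-6 to nas-15), members with EGF-like and CUB domains (nas-16 to nas-30), nas-31 and nas-32, members that also carry a thrombospondin type 1 domain (nas-33, hch-1, dpy-31 and nas-36 to nas-38), and nas-39. A further member, nas-40, is listed as a pseudogene by RefSeq. The gene toh-1 was not assigned to a domain group here.

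The libraries held 9368922 to 29247719 counts, of which the members took 659 and 4357 at L4 and 2764 to 4771 at Day 6. Levels are given as CPM, which is counts scaled to library size after TMM, in the order of the replicate numbers. Fold changes are log2 of Day 6 over L4 from the quasi-likelihood test of edgeR, and called genes had an adjusted p (Benjamini-Hochberg, over 12758 features tested) under 0.05. L4 replicate 1 stood apart. Genes of ribosomal proteins took 45.2% of its counts, against 19.3% to 23.5% in the others, its TMM factor was 0.293, and its log2 CPM correlated with L4 replicate 2 at a Pearson's r of 0.80 across genes, against 0.96 to 0.97 among the Day 6 libraries. Summed levels of molting genes and of oocyte markers differed between the labelled ages. Genes of molting other than astacins summed to 2868 and 1686 CPM at L4 but to 74.0 to 77.4 CPM in the adults, and markers of oocytes and the hermaphrodite germline to 301 and 190 CPM at L4 but to 2308 to 4903 CPM in the adults. Markers of the pharynx summed to 11.7 CPM in the first L4 library, 166 CPM in the second and 79.4 to 111 CPM at Day 6, so the L4 libraries differed by a factor of 14.2. Those of the epidermis and cuticle summed to 9559 and 2730 CPM at L4 and to 243 to 432 CPM at Day 6. The collagen gene col-10 held 6552 and 436 CPM of the L4 sums. Of the 10 genes tested in the list 6 fell and 1 rose, against 12.5% and 14.3% of all features. The gene that rose was lin-26 (log2 fold change 2.06, edgeR, adjusted p = 0.0249). Not called were col-19 (0.21), elt-1 (0.21) and elt-3 (-0.61). In that list col-19 was at 18.6 and 486 CPM at L4 and at 183 to 367 CPM at Day 6. The gene bli-1 was at 13.4 and 94.8 CPM at L4, whereas the rest of the list was higher in L4 replicate 1. How close the L4 libraries were in developmental time was not tested.

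The summed level of the family overlapped between the ages, whereas the shares of nas-11 and toh-1 in it did not. Summed over the 38 members, the level was 155 and 288 CPM at L4 and 158, 222 and 165 CPM at Day 6, and the groups overlapped. Of the counts of the family, nas-11 took 3.64% and 13.8% at L4, and its part was 35.2%, 59.1% and 54.5% at Day 6. The share of toh-1 went the other way, with 45.7% and 13.4% at L4 and 7.32%, 3.49% and 4.197% at Day 6. For both genes the groups did not overlap, although the L4 libraries stood far apart, and these shares do not depend on how the libraries are scaled. They were not tested. A single member, nas-16, had no count in any library.

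**Figure D1:**
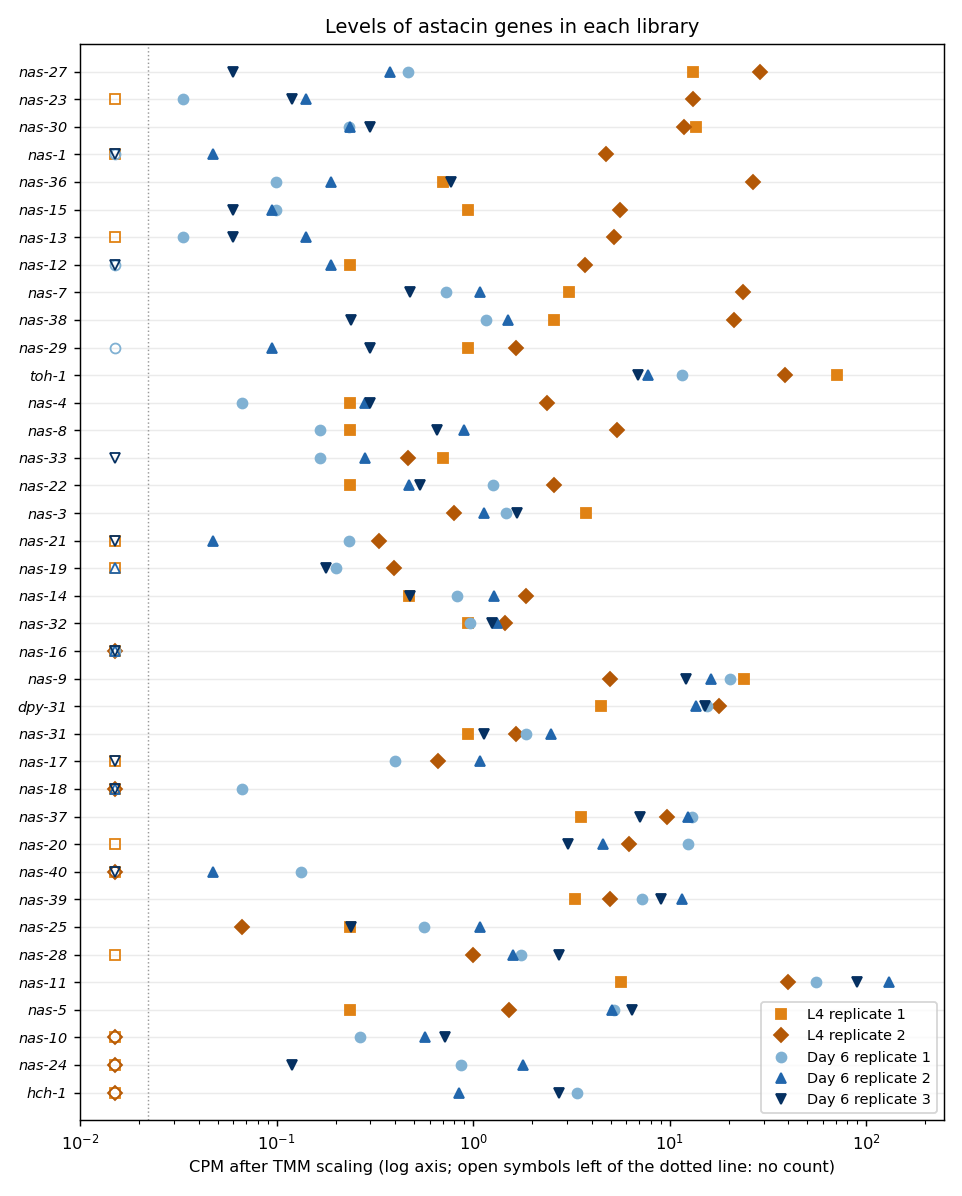
CPM of each of the 38 astacin genes (rows, log axis) in the 2 L4 libraries (orange) and the 3 Day 6 libraries (blue), with genes ordered from those higher at L4 (top) to those higher at Day 6 (bottom). Open symbols left of the dotted line stand for libraries with no count, and at the bottom hch-1, nas-24 and nas-10 have counts at Day 6 only.

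**Figure D2:**
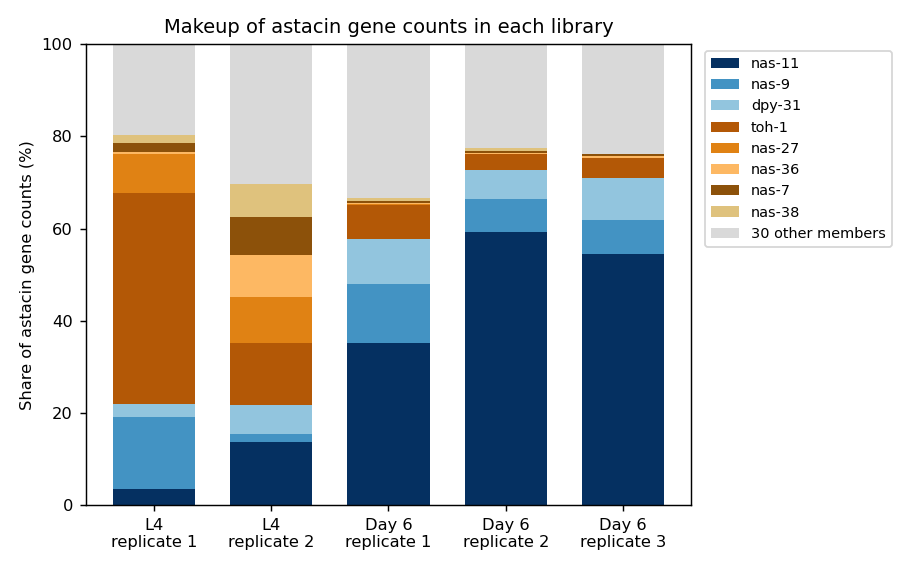
Share of all astacin gene counts in each library (%) taken by 8 members and by the 30 others together. The share of nas-11 goes from 3.64% and 13.8% at L4 to between 35.2% and 59.1% at Day 6, while that of toh-1 goes from 45.7% and 13.4% to between 3.49% and 7.32%.

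Of the 38 members, 24 had enough counts to be tested and 14 did not. Among those tested 6 fell, 1 rose and 17 did not pass the test. Of all features tested 12.5% fell and 14.3% rose, and the members came to 25.0% and 4.17%. A gene enters the test only if at least 2 libraries hold enough counts, so a member seen at 1 age had to differ to be tested at all, and nothing is read from these shares. The median log2 fold change was 0.23 over the 24 members and 0.08 over all features. Of the 24, 7 lay higher in every Day 6 library than in either L4 library (35.4% of all features tested did) and 5 lay lower (23.4%).

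The members called lower were nas-27, nas-30, nas-36, nas-7, nas-38 and toh-1. With the replicate number as a block, taken from the sample titles, 3 of them were called (nas-27, nas-30 and nas-36, against 5.06% of all features) and hch-1 was not (adjusted p = 0.0539, against 6.4% of features higher). With the number in the library names as the block, nas-27 and nas-30 were the 2 called lower (2.81% of all features) and none was higher (3.23%, with 2 at an unadjusted p under 0.05). The genes nas-27 and nas-30 were also the 2 called lower without Day 6 replicate 1 (2.38% of all features), without Day 6 replicate 2 (4.14%) and without Day 6 replicate 3 (2.49%). In these fits hch-1 passed without Day 6 replicate 2 alone (3.99% of all features higher), and no member was higher without Day 6 replicate 1 (2.12%, with 2 at an unadjusted p under 0.05) or replicate 3 (1.94%, also with 2). With library size as the only scaling no member was called, against 1.18% of all features higher and 1.37% lower, and at an unadjusted p under 0.05 there were 3 higher and 4 lower.

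The largest fall among the members called was that of nas-27 (WBGene00003545, chromosome II, 1175925 to 1179323, minus strand, WBcel235), of the group with EGF-like and CUB domains. Its level was 13.2 and 28.7 CPM at L4, and 0.465, 0.377 and 0.0596 CPM remained at Day 6. Every L4 library was far above every Day 6 library. The means were 20.9 ± 11.01 CPM (SD, n = 2) and 0.3005 ± 0.213 CPM (SD, n = 3), and the log2 fold change was -6.04 (standard error 0.84, edgeR, adjusted p = 0.00476).

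Of the members called lower, nas-30 had the smallest gap between its L4 libraries. It belongs to the same domain group and lies on chromosome I (938483 to 947710, plus strand). Its L4 libraries held 13.6 and 11.8 CPM and its adult libraries 0.232, 0.236 and 0.298 CPM, with means of 12.7 ± 1.26 (SD, n = 2) and 0.255 ± 0.0368 (SD, n = 3). This made a log2 fold change of -5.61 (standard error 0.63, edgeR, adjusted p = 0.00354), which stayed between -5.71 and -5.44 without either L4 library and was -6.94 once the dependence on exon length had been removed. The group with EGF-like and CUB domains, nas-16 to nas-30, had 14 members in the files under these names. Of these 7 were tested and 2, nas-27 and nas-30, were called lower, against 12.5% of all features. The gene toh-1, also called lower, was assigned to no group here and is not counted among them.

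The gene toh-1, the most abundant member at L4 by mean level, fell as well. Located on chromosome III (3804772 to 3809030, minus strand), it gave 70.7 and 38.7 CPM at L4, and the adults gave 11.6, 7.73 and 6.91 CPM. The groups did not overlap. The log2 fold change of -2.64 (standard error 0.52, edgeR, adjusted p = 0.0122) moved to -2.06 without L4 replicate 1 and -2.998 without L4 replicate 2. The call was lost when any Day 6 library was left out (adjusted p between 0.0615 and 0.0866) and with either block (0.0976 by titles and 0.12 by library names).

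Of the members that act in molting, nas-36 and nas-38 were called lower and nas-37 was not called. The gene nas-36, needed for ecdysis, the shedding of the old cuticle (chromosome I, 7527224 to 7531715, plus strand), was at 0.705 CPM in the first L4 library (3 counts), 26.5 CPM in the second (400 counts) and 0.0996, 0.189 and 0.774 CPM in the adults. L4 replicate 1 lay below Day 6 replicate 3, so the groups overlapped, and the L4 libraries differed 37.6-fold. Its log2 fold change was -5.33 (standard error 1.41, edgeR, adjusted p = 0.0301), and -1.04 without L4 replicate 2 (adjusted p = 0.61). It also missed the threshold without Day 6 replicate 1 (adjusted p = 0.12), without Day 6 replicate 2 (0.0942), with voom (0.0526) and with the block by library names (0.18), and was not tested without Day 6 replicate 3.

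Its partner in ecdysis, nas-37 (chromosome X, 9944844 to 9949063, minus strand), was not called. The levels were 3.52 and 9.73 CPM at L4 and then 13.01, 12.4 and 7.09 CPM. L4 replicate 2 lay inside the range of the Day 6 libraries. The difference of 0.68 on the log2 scale had a 95% interval from -0.79 to 2.16 (edgeR, adjusted p = 0.44). Without L4 replicate 2 it was at 1.63, in a fit where the median of all features was 1.05. Once the dependence on exon length was removed it was at -0.12. No test of the difference between nas-36 and nas-37 was run.

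The gene nas-38, which acts in molting and molting sleep (chromosome X, 558157 to 563708, plus strand), was at 2.58 and 21.1 CPM at L4, with 1.16, 1.51 and 0.238 CPM left in the adults. Both L4 libraries lay above all Day 6 libraries, L4 replicate 1 by little. It fell (log2 fold change -3.61, standard error 1.02, edgeR, adjusted p = 0.0373), and the value was -4.31 without L4 replicate 1 and -1.38 without L4 replicate 2, where it was not called (adjusted p = 0.23). The pharyngeal member nas-7 (chromosome II, 7400545 to 7402725, minus strand) held 3.05 and 23.5 CPM at L4 and later 0.730, 1.08 and 0.476 CPM. Its groups did not overlap either. For both genes this rests on TMM and on few counts. L4 replicate 1 held 13 counts of nas-7 and 11 of nas-38 among 14517986, with a TMM factor of 0.293. Day 6 replicate 2 held 23 and 32 among 13043617, so by library size alone the groups overlap. The value for nas-7 was -4.12 (standard error 0.91, edgeR, adjusted p = 0.0173), and without L4 replicate 2 it was -1.97 and not called (adjusted p = 0.0629). The L4 libraries differed by 8.17-fold for nas-38 and 7.69-fold for nas-7, in the direction in which the summed markers of the pharynx differed, and the part of those markers in the result was not tested. Without any 1 Day 6 library nas-7 and nas-38 did not pass (adjusted p between 0.0584 and 0.14), nor did they with either block (0.0813 to 0.27).

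**Figure D3:**
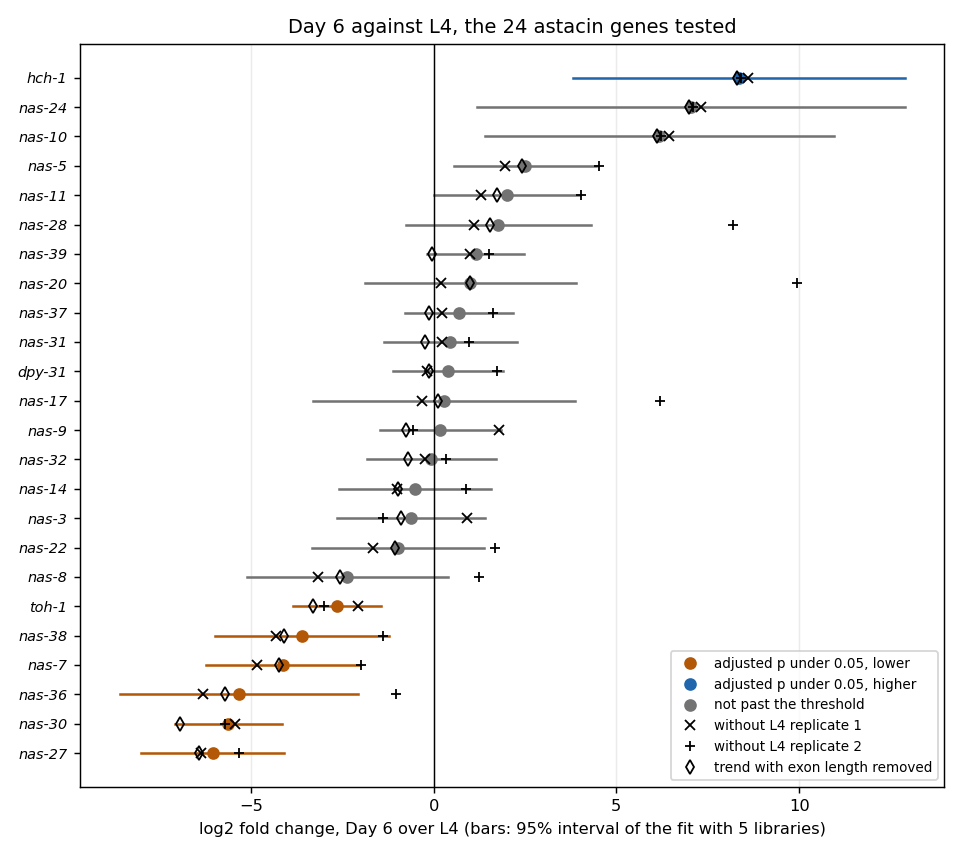
Log2 fold change of Day 6 over L4 for the 24 astacin genes tested, with the 95% interval of the edgeR fit (bars) and the value without L4 replicate 1 (crosses), without L4 replicate 2 (plus signs) and with the trend with exon length removed (diamonds). Values of nas-30 and nas-27 stay below -5 in all of them, while nas-36 moves to -1.04 without L4 replicate 2.

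A further set of members was seen almost only in L4 replicate 2 and was too sparse in the others for the test. The gene nas-23 had 0 and 198 counts at L4 and 1, 3 and 2 in the adults. For nas-1 these counts were 0 and 72, then 0, 1 and 0, and for nas-13 they were 0 and 79, then 1, 3 and 1. L4 replicate 2 stood alone in these 3 genes, with no count in L4 replicate 1. The gene nas-15 had 4 and 84 counts at L4 and 3, 2 and 1 at Day 6, and nas-12 had 1 and 56 at L4 and 0, 4 and 0 at Day 6. Here L4 replicate 1 also lay above the Day 6 libraries in CPM, but on 4 counts and 1 count.

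Pooled over libraries, the ratio of L4 to Day 6 was 116 for nas-23 (95% exact interval 52.4 to 320), 253 for nas-1 (44.0 to 10140), 55.6 for nas-13 (22.8 to 176), 51.6 for nas-15 (22.8 to 144) and 50.1 for nas-12 (18.5 to 190). These intervals cover counting error only and no difference between animals, and reads are not independent molecules. With no filter on low counts, nas-1, nas-12, nas-13, nas-15 and nas-23 passed as lower (log2 fold change -6.71 to -4.81, edgeR, adjusted p between 0.00691 and 0.0353), and 11 of 37 members were lower and 2 higher, against 10.9% and 11.1% of all features in that fit. The same 5 passed with DESeq2, in which 11 of 33 members were lower and 4 higher, against 20.7% and 15.8% of all features. They passed too without L4 replicate 1, among 13 members lower and 3 higher of 32 tested, against 24.1% and 26% of all features. That last fit rests on 1 L4 library and takes its spread from the Day 6 libraries.

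The members nas-4, nas-29 and nas-33 were also untested, with 37, 29 and 10 counts over the L4 libraries and 13, 7 and 11 over those of Day 6. The ratio of L4 to Day 6 was 10.01 (95% exact interval 5.20 to 20.5), 14.6 (6.25 to 39.4) and 3.20 (1.22 to 8.29). For nas-29 and nas-33 both L4 libraries lay above all Day 6 libraries, and for nas-4 they did not. Counts of nas-4 may include reads of C05D11.5, which shares 437 exon bases with it on the same strand.

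**Figure D4:**
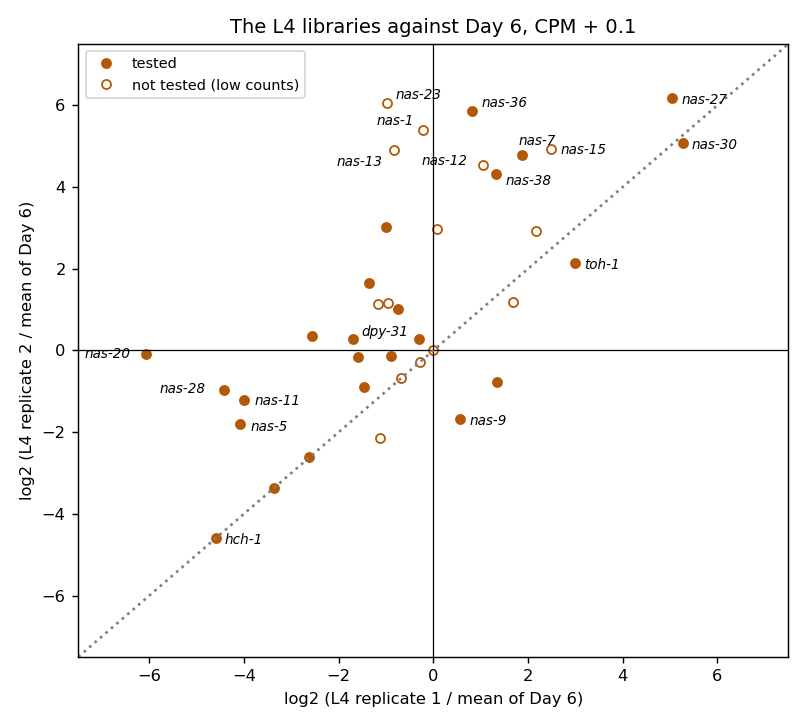
Log2 ratio of L4 replicate 1 (horizontal) and of L4 replicate 2 (vertical) to the mean of Day 6 for the 38 members, each as CPM with 0.1 added, with filled symbols for the genes tested. On the dotted line both L4 libraries are alike: nas-27, nas-30, toh-1 and hch-1 lie near it, and nas-23, nas-1, nas-13 and nas-36 lie far above it.

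The L4 libraries differed in most members. Of the 38 members, 26 were higher in L4 replicate 2 than in L4 replicate 1 and 6 were lower, and 28 had at least 10 counts in L4 replicate 2 against 11 in L4 replicate 1. L4 replicate 2 lay above all Day 6 libraries in 21 members and L4 replicate 1 in 11. The level in L4 replicate 1 went down with exon length. Over 4 classes of tested features of nearly equal number, from short to long exon length, its median log2 difference from Day 6 was 0.73, -0.40, -1.02 and -2.04, and that of L4 replicate 2 was 0.05, 0.16, -0.01 and -0.36. The exon lengths of the members ran from 723 to 3480 bases, with a median of 1691 against 1392 over all features tested. In that length range, the 9419 other features tested had a median log2 difference from Day 6 of -0.94 in L4 replicate 1 and -0.05 in L4 replicate 2, and the members tested had medians of -1.01 and 0.21. Over all features tested the medians were -0.86 and -0.07. The part of exon length in the gap between the L4 libraries was not tested. Of the 23 molting genes other than astacins, 14 were higher in L4 replicate 2 and 9 in L4 replicate 1, and without cut-2, the highest of them in L4 replicate 1, they summed to 1137 and 1202 CPM.

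The hatching protease gene hch-1 was the member that rose. It had no count in either L4 library and 102, 18 and 46 counts at Day 6, or 3.39, 0.848 and 2.74 CPM. Against a floor of 3 counts over both L4 libraries, it was at least 15.7-fold higher at Day 6, and it passed the test (edgeR, adjusted p = 0.0229). With no count at L4 it entered the test through its Day 6 counts alone, so nothing beyond those counts is read from its call. Fitted fold changes of genes with no count at L4 rest on the prior count and are not given for them. The call of hch-1 was lost without Day 6 replicate 1 (adjusted p = 0.0833) and without Day 6 replicate 3 (adjusted p = 0.0766). It was also lost with either block (edgeR, adjusted p = 0.0539 by titles and 0.16 by library names). With library size as the only scaling it was lost as well (0.0784). Markers of the embryo and the eggshell summed to 148 and 221 CPM at L4 but to 7560, 4094 and 5294 CPM in the adults. Of these markers, 7 of the 8 tested rose, against 14.3% of all features. The exception was hlh-1, a muscle gene placed in that list, which fell (log2 fold change -2.78, edgeR, adjusted p = 0.0280). The part of these markers in the rise of hch-1 was not tested.

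Other members had no count at L4 but did not pass the test. The gene nas-24 had 26, 38 and 2 counts at Day 6 and was at least 6.25-fold higher against the same floor (edgeR, adjusted p = 0.0745). For nas-10 there were 8, 12 and 12 counts at Day 6, at least 3.03-fold more (adjusted p = 0.0613). With DESeq2 nas-24 passed (adjusted p = 0.0452) and nas-10 did not (adjusted p = 0.12). The untested nas-25 had 1 count in each L4 library and 17, 23 and 4 at Day 6, a ratio of 6.25 (95% exact interval 1.63 to 53.3). For nas-18 and the pseudogene nas-40 there were 2 and 5 counts, all at Day 6.

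The gene nas-11 (WBGene00003530, chromosome X, 6713577 to 6716357, plus strand), with ShK-type domains, was the most abundant astacin at Day 6, but its difference from L4 did not pass the test. The L4 libraries held 5.64 and 39.8 CPM, and the adult libraries held 55.7, 131 and 89.8 CPM. All Day 6 libraries lay above both L4 libraries. The log2 fold change was 2.01 (95% interval 0.02 to 3.99, edgeR, adjusted p = 0.12). It passed with DESeq2 (adjusted p = 0.0389). Without L4 replicate 1 it was at 1.30, and without L4 replicate 2 at 4.04, where the median of all features was 1.05. The gene shares 163 exon bases with smf-2 on the opposite strand, and the strand setting of the counting is not stated.

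Similarly, nas-5, a short member on chromosome I, was at 0.235 and 1.52 CPM at L4 and at 5.21, 5.09 and 6.43 CPM at Day 6, with no overlap between the groups. Its log2 fold change of 2.50 (standard error 0.84) missed the threshold (edgeR, adjusted p = 0.0606). It passed when the trend with exon length was removed (2.41, edgeR, adjusted p = 0.0393) and with no filter on low counts (0.0484). It also passed with DESeq2 (adjusted p = 0.0192) and with voom (0.0436). It did not pass when any 1 Day 6 library was left out (edgeR, adjusted p between 0.18 and 0.21). Nor did it with either block (0.19 by titles and 0.31 by library names). With RLE (0.0520), upper-quartile (0.0781) or no scaling factors (0.39) it did not pass either. Its value was 1.94 without L4 replicate 1 and 4.53 without L4 replicate 2, where the median of all features was 1.05. The gene nas-28 was at 0 and 0.993 CPM at L4 and at 1.76, 1.60 and 2.74 CPM at Day 6, again without overlap and without passing (1.77, edgeR, adjusted p = 0.25). Without L4 replicate 2 its fold change rests on no count at L4.

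The members that process collagen or resemble tolloid did not pass the test. The level of dpy-31, which cuts collagen precursors (chromosome III, 7202206 to 7207664, plus strand), was 4.46 and 17.8 CPM at L4 and 15.5, 13.6 and 15.2 CPM at Day 6. L4 replicate 2 was the highest of all 5 libraries and L4 replicate 1 the lowest. The difference of 0.39 on the log2 scale had a 95% interval from -1.12 to 1.89 (edgeR, adjusted p = 0.67). It turned on the L4 libraries, with -0.19 without L4 replicate 1 and 1.73 without L4 replicate 2, where the median of all features was 1.05. Its substrate sqt-3, a cuticle collagen, fell from 1228 and 648 CPM to 11.2, 8.53 and 8.34 CPM (log2 fold change -6.65, standard error 0.74, edgeR, adjusted p = 0.00354). No test of the difference between dpy-31 and sqt-3 was run.

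The tolloid-like nas-39 (chromosome X, 16456927 to 16471333, plus strand) was at 3.29 and 4.96 CPM at L4 and at 7.24, 11.6 and 9.05 CPM at Day 6, and the groups did not overlap. The log2 fold change of 1.15 (95% interval -0.18 to 2.48, edgeR, adjusted p = 0.16) went to -0.05 when the trend with exon length was removed. It was 1.502 without L4 replicate 2, where the median of all features was 1.05. It has the longest exon length of the family. Of the partners of tolloid proteases in the BMP-like pathway (ligand, receptors, SMAD proteins and modulators), 12 were tested and none passed with edgeR. Of all features 14.3% were higher and 12.5% lower in that fit. At an unadjusted p under 0.05 there were 1 higher and 1 lower partner. DESeq2 called 1 of each, against 15.8% of all features higher and 20.7% lower.

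For nas-9, of the group with ShK-type domains, the L4 libraries lay on either side of the adults. They held 23.96 and 4.96 CPM, against 20.3, 16.3 and 12.03 CPM at Day 6, and the difference was 0.18 on the log2 scale (95% interval -1.47 to 1.83, edgeR, adjusted p = 0.86). Without L4 replicate 1 it passed as higher (1.79, adjusted p = 0.00614), and without L4 replicate 2 it was at -0.55. The other members tested, nas-3, nas-8, nas-14, nas-17, nas-20, nas-22, nas-31 and nas-32, had log2 fold changes from -2.36 (nas-8) to 1.007 (nas-20) and groups that overlapped. Both of these ends turned on an L4 library. The value of nas-8 was -3.17 without L4 replicate 1 and 1.24 without L4 replicate 2, where the median of all features was 1.05. For nas-20, L4 replicate 1 held no count and L4 replicate 2 was at 6.22 CPM. The other 6 did not pass without either L4 library. The narrowest of their intervals, that of nas-32, ran from -1.82 to 1.70.

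The family is spread over all chromosomes, with 12 members on V, 9 on X, 5 each on II and III, and 3 each on I and IV, while nas-40 was not placed. The members on V include 2 clusters. The genes nas-16 to nas-19 lie within 10391 bases (11392320 to 11402710), and together they had 0 and 16 counts at L4 and 20, 23 and 3 at Day 6. The genes nas-20 to nas-22 lie within 7083 bases (11470925 to 11478007), with 1 and 138 counts at L4 and 417, 108 and 60 at Day 6. In this second cluster nas-20 held most counts at Day 6, at 12.4, 4.57 and 3.04 CPM against 0 and 6.22 CPM at L4. Neighbouring members may be alike in sequence, and reads may have been shared among them. Among all members 12 share exon bases with a gene on the opposite strand and 3 with a gene on the same strand.

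Levels per kilobase of exon allow for exon length, but levels in L4 replicate 1 went down with it, so genes are not fully comparable there. By the mean per kilobase toh-1 was the most abundant member at L4, at 34.3 ± 14.2 CPM per kilobase (SD, n = 2), and its libraries did not overlap those of the next gene. In L4 replicate 2 alone toh-1 was at 24.2 and nas-11 at 22.4 CPM per kilobase. Behind toh-1, nas-27 (12.9 ± 6.80), nas-11 (12.8 ± 13.6), nas-7 (9.85 ± 10.7) and nas-9 (8.02 ± 7.45) overlapped in turn. At Day 6 nas-11 led at 51.8 ± 21.2 CPM per kilobase (SD, n = 3), clear of nas-9 at 8.97 ± 2.28. After it dpy-31 (7.10 ± 0.504), nas-20 (5.57 ± 4.18) and toh-1 (5.47 ± 1.56) overlapped in turn. Of the members called lower, toh-1 alone was among the 5 most abundant at Day 6.

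Related genes outside the family were fitted in the same test, in which 14.3% of all features rose and 12.5% fell. Of 22 molting genes tested, 15 fell and none rose, with a median log2 fold change of -4.76. With DESeq2 17 of 23 fell, against 20.7% of all features in that fit. Those of highest level were the cuticlin gene cut-2, mlt-8 and the cuticle collagen gene bli-2, at -8.86, -6.89 and -7.32 (edgeR, adjusted p between 0.00353 and 0.0124). The 14 collagen processing partners (collagen substrates, the convertase bli-4, prolyl hydroxylases, a disulfide isomerase and crosslinking enzymes) had 6 that fell and none that rose at a median of -2.53, and at an unadjusted p under 0.05 there were 9 and 2. Of the 6 that fell, the collagen genes dpy-13, sqt-3 and sqt-1 had the highest mean level, and all but the prolyl hydroxylase gene dpy-18 were collagen genes. The 8 not called held the convertase and most of the enzymes, at log2 fold changes from -2.90 to 2.07. Among the 11 tested genes of ADAM, ADAMTS and matrix metalloproteases, sup-17, an ADAM protease that cuts Notch receptors, and unc-71 rose (log2 fold changes 3.34 and 4.16) and zmp-2 fell (-4.66). Of 9 tested genes of protease inhibitors, mlt-11 and spi-1 fell (-3.998 and -6.03) and the serpin gene srp-2 rose (2.87). The counts called among the metalloproteases and the inhibitors are small and near the shares over all features, and nothing is read from them. The median over the astacins, 0.23, lay above those of the molting and collagen processing lists, with no test run between lists. The collagen processing median includes the collagen substrates themselves.

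**Figure D5:**
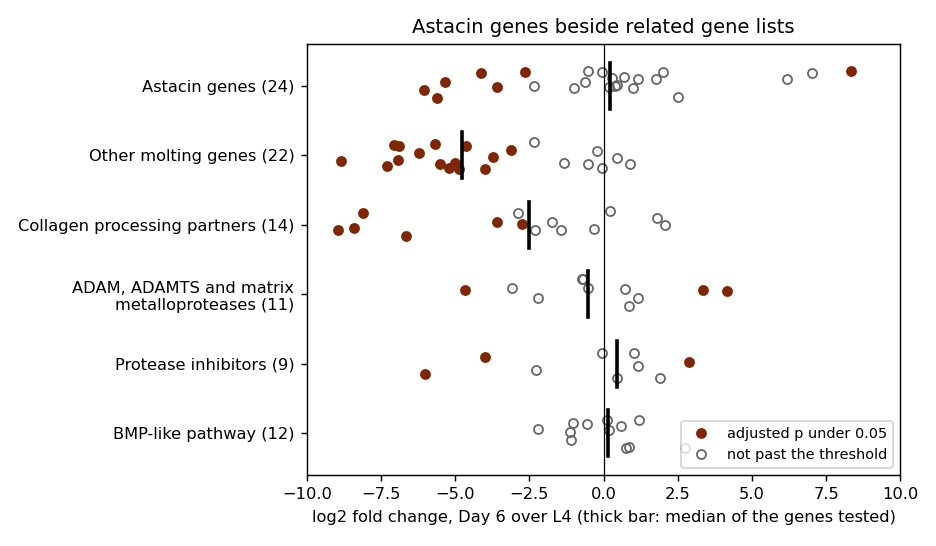
Log2 fold change of Day 6 over L4 for each gene tested in the astacin family and in 5 related lists (number of genes in parentheses, heights within a row spread at random), with filled symbols for adjusted p under 0.05 (edgeR) and a thick bar at the median. Most molting genes lie below -3, while the astacin genes run from -6.04 (nas-27) to the positive side, where hch-1, nas-24 and nas-10 have no count at L4.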

How the data were processed

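RNA-seq counts of 5 libraries were used. Per the paper's methods, the authors removed rRNA, prepared strand-specific cDNA, trimmed single reads, mapped them to WormBase WS254 (TopHat2) and counted with featureCounts. The deposited values are whole-number counts per feature with a different total in each library, and were taken as raw counts from the values themselves. Versions and the strand setting are not given in the sources used here. Features were named through WormBase IDs or aliases, and positions and exon lengths came from Ensembl release 115 (WBcel235). A feature of a member was found by its alias, and 37 of 38 had an exon length.

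The quasi-likelihood test of edgeR 4.0.16 (R 4.3.3; TMM, filterByExpr at 10 counts and a total of 15, glmQLFit and glmQLFTest) set Day 6 against L4. Members, lists and alternatives were chosen with earlier results of these data known. Described with values were members that passed, members with a known role, nas-39 and the 5 of highest level per kilobase at each age, and genes of other lists that passed, up to 3 each way. Some cell type markers were named besides. The alternatives were RLE, upper-quartile and no scaling factors, DESeq2 1.42.0, voom in limma 3.58.1, 2 filters, each library left out, the replicate as a block and removal of the trend with exon length (lowess, span 0.3). By the labels and methods, libraries of 1 number may come from 1 cohort and 1 preparation. Deviations of same-numbered libraries correlated at 0.34 and 0.27 by title and at -0.27 and 0.13 by library name, where the L4 pair deviates in mirror image by construction, so both numberings were tried. The test was tested on simulated data. Figures were drawn with matplotlib 3.10.9. Sequences were not used here.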

Additional observations from a re-analysis of the deposited data

How the results depend on the processing

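With all 5 libraries, 1 member was higher and 6 were lower, and no call turned its direction under the 16 alternatives. The share of all features called higher and lower in the same fit stands in parentheses. Library size without scaling factors gave 0 and 0 (1.18% and 1.37%, edgeR; at an unadjusted p under 0.05, 3 and 4 members), DESeq2 4 and 11 (15.8% and 20.7%), voom 2 and 5 (16.8% and 12.4%), no filter on low counts 2 and 11 (11.1% and 10.9%), removal of the length trend 2 and 6 (13.7% and 17.8%), and that removal without L4 replicate 1 gave 4 and 14 (25.6% and 24.4%). Leaving out 1 library gave 0 to 8 higher (1.94% to 36.5%) and 2 to 13 lower (2.38% to 24.2%), and the 8 came without L4 replicate 2, of 25 tested. The median log2 fold change of the members ran from -0.90 with DESeq2 to 1.41 without L4 replicate 2, and that of all features from -0.32 with the length trend removed to 1.05 without L4 replicate 2. By scaling alone the latter ran from -0.22 with upper-quartile factors to 0.46 without factors. A block on the replicate gave 0 higher and 3 lower (6.4% and 5.06%, title numbers) and 0 and 2 (3.23% and 2.81%, library names). The cause of these shifts was not tested. Of the 14 untested members, most had under 10 counts in all libraries but L4 replicate 2.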
